A study of Capra hircus with 2 samples.

Results

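The microRNAs miR-26a and miR-26b form a small family that was read here in the endometrium of the dairy goat at 2 stages of early pregnancy. Its members were taken by name: every known miRNA whose designation after the species prefix was miR-26a, miR-26b or miR-26c, with any arm or end annotation. The table of known miRNAs held 8 such names in 9 entries, out of 587 distinct names in 641 entries. Of these names, 5 were miR-26a and 3 were miR-26b, and 0 were miR-26c.

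The animals were Xinong Saanen goats (Capra hircus), 24 months old and multiparous, whose estrus had been synchronised and which were mated naturally. The pre-receptive library (P) was made from endometrium on day 5 of pregnancy and the receptive library (R) from endometrium on day 15. The tissue came from the front (anterior) wall inside the uterus. Within each phase the RNA of 9 goats out of 10 was mixed into 3 samples, the library was sequenced 3 times, and the files give 1 value per library, so that no replicates were available. The library labels R and P agreed between the deposited tables of known miRNAs and of differential expression. In the deposited table of predicted candidates they were exchanged. Had that table been followed, every difference between R and P given here would turn around. By stem-loop RT-qPCR the study found miR-449a, miR-182, miR-183 and miR-187, among others, higher in receptive endometrium, the direction of the labels followed here. In the same measurement miR-200a was nearly equal, and PC-5p-26648_38 and PC-3p-215602_2 went the other way. Summed over known names, 1880606 reads were listed for R and 4032588 for P, with some reads under more than 1 name.

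A miRNA hairpin is cut into a duplex of a 5p and a 3p strand, of which usually one is kept in the Argonaute protein as the guide while the other, the passenger, is degraded. In the miR-26 family the 5p strand is the guide, and it recognises messenger RNAs mainly through its seed, bases 2 to 8. The genes of the family lie within introns of the CTDSP genes, which encode small phosphatases of the RNA polymerase II tail, and are transcribed together with them. The histone methyltransferase EZH2 is a well-studied target, and the family is known for restraining the cell cycle in many differentiated tissues.

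The 5p strands carried nearly all reads of the family, and they are shown first with the seed in capitals, as read in the goat. The prefix oar marks a match to a sheep entry of the miRNA database and hsa a match to a human entry. R+1 marks 1 base more at the 3′ end than the database sequence has.
oar-miR-26a: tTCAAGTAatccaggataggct
oar-miR-26b_R+1: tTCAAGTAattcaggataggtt
Both were 22 bases long, shared the seed and differed at 2 positions counted from the 5′ end, C11T and C21T from miR-26a to miR-26b. Among the 587 known names no name outside the family had this seed, and 0 of the candidate miRNAs predicted by the authors had it.

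The 3p strands are shown because their balance with the 5p strands differed between the libraries.
hsa-miR-26a-1-3p_1ss9TC: cCTATTCTcggttacttgcacg
hsa-miR-26a-2-3p: cCTATTCTtgattacttgtttc
hsa-miR-26b-3p: cCTGTTCTccattacttggctc
The ending 1ss9TC marks the change T9C from the human sequence. The strands of miR-26a-1 and miR-26a-2 shared a seed and differed at 6 positions. The strand of miR-26b had another seed, A4G from that of miR-26a-2, and differed from it at 5 positions in all. No known name outside the family and no candidate carried either 3p seed.

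Levels are given as normalized expression (NE), the reads of a name divided by 1 size factor per library. In R each read counted 0.860 NE, and in P 1.16 NE. The formula in the study's methods takes reads relative to the clean reads, which the deposited values do not follow. With clean reads as the total neither guide was past 2-fold. The guide strand oar-miR-26a stood at 142847 NE in R (95% Poisson interval 142161 to 143535) and at 330582 NE in P (329367 to 331799). It ranked 5 in R and 4 in P among the known names, with 8.83% of the known reads of R and 7.05% of those of P. Its partner oar-miR-26b_R+1 stood at 59230 NE in R (58789 to 59674) and 124009 NE in P (123265 to 124755), ranks 8 and 6, with 3.66% and 2.64% of the known reads. Both guides were thus among the most abundant miRNAs of either library, and in both libraries miR-26a lay above miR-26b with intervals far apart. Reads were amplified by PCR without molecular identifiers, so all intervals cover counting error only.

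The remaining 6 names lay far lower, at 116.9 NE or less in both libraries. The passenger hsa-miR-26b-3p had 44.7 NE in R (33.4 to 58.6) and 17.4 NE in P (9.76 to 28.8). For hsa-miR-26a-2-3p the level was 21.5 NE in R (13.9 to 31.7) and 26.2 NE in P (16.0 to 38.7) in each of its 2 entries. Of the 54 known names listed more than once, 11 came out as whole reads in both libraries from 1 entry and 51 from the sum of their entries, as when reads are divided among entries. Summed, hsa-miR-26a-2-3p had 43.0 NE in R (31.9 to 56.7) and 52.3 NE in P (38.2 to 70.03). The strand hsa-miR-26a-1-3p_1ss9TC had 7.74 NE in R (3.54 to 14.7) and 3.49 NE in P (0.719 to 10.2), from 9 and 3 reads. In the order of levels, oar-miR-26a and oar-miR-26b_R+1 stood apart from each other and from the rest in both libraries. From the third place down, the interval of every name in R overlapped that of the next, and in P the same held from the fourth place down. With the entries summed, the intervals of the names in the sixth and seventh place in R were apart, and in P those in the fifth and sixth place.

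**Figure D1:**
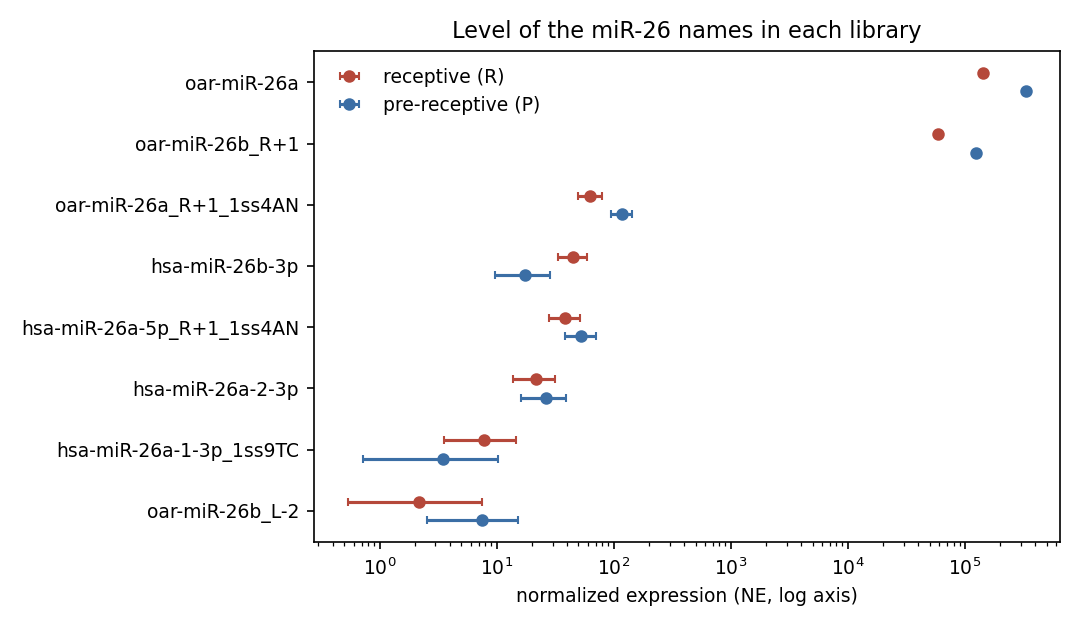
Normalized expression (NE, log axis) of the 8 miR-26 names in the receptive (R) and pre-receptive (P) library, 1 value per library, with bars for the 95% Poisson interval of the reads. The guides oar-miR-26a and oar-miR-26b_R+1 lie at 59230 NE or more, and the other names at 117 NE or less.

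The comparison of R with P asks how the family differed between the receptive and the pre-receptive endometrium. On the NE scale both guides were lower in R, a direction that turned when all known reads were taken as the total. oar-miR-26a had a log2 ratio (R over P) of -1.21 (95% Clopper-Pearson interval -1.22 to -1.20), a 2.31-fold lower level, and oar-miR-26b_R+1 one of -1.07 (-1.08 to -1.05), a 2.09-fold lower level. The passenger hsa-miR-26b-3p went the other way, 2.56-fold higher in R with a log2 ratio of 1.36 (0.51 to 2.29). For hsa-miR-26a-1-3p_1ss9TC the log2 ratio was 1.15 and for hsa-miR-26a-2-3p it was -0.28, with intervals of -0.85 to 3.67 and -1.14 to 0.64 that include 0. The endometrium is a bulk tissue, in which fewer cells of a type and less RNA per cell cannot be told apart.

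A name was called when its NE differed by more than 2-fold, with at least 1 NE in 1 library and a value above 0 in both. All 8 names could be tested, 3 of them were called lower in R and 2 higher. Over the 438 known names tested, 16.4% were called lower in R and 22.8% higher. The 3 lower names were both guides and oar-miR-26b_L-2, and the 2 higher names were hsa-miR-26b-3p and hsa-miR-26a-1-3p_1ss9TC. The call of hsa-miR-26a-1-3p_1ss9TC was lost with a pseudocount of 1 NE (log2 ratio 0.96), with a minimum of 10 reads in both libraries, and with an exact binomial test of its reads on the NE scale (Benjamini-Hochberg adjusted p = 0.413 over all known names, a test added after seeing the data). That of oar-miR-26b_L-2 was lost with the minimum of 10 reads and with the same exact test (adjusted p = 0.309). Fisher's exact test against the clean reads, whose p-value takes that scaling while the 2-fold limit stays on NE, gave adjusted p = 0.0695 and 0.840 for these names. All 5 names of the 5p arm had a log2 ratio below 0 on this scale, with a median of -1.07. The intervals of oar-miR-26b_L-2 and hsa-miR-26a-5p_R+1_1ss4AN include 0, and the latter has the same sequence as oar-miR-26a_R+1_1ss4AN. The 3 names of the 3p arm had a median of 1.15, the value of hsa-miR-26a-1-3p_1ss9TC from 9 and 3 reads. Names are not replicates of an arm, so these medians are descriptions only. For 179 known 5p names outside the family the median was -0.17, and for 185 known 3p names it was 0.28. With 1 library per phase the calls have no replicate check, and they compare these libraries, not the phases.

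The direction of the guides rested on the scaling of the libraries. Set to the clean reads of each library, all log2 ratios shifted up by 0.78, and oar-miR-26a stood at -0.43 and oar-miR-26b_R+1 at -0.28. With the reads of the let-7 family as the total the shift was 0.55, and the guides stood at -0.66 and -0.52. With the reads of all known names as the total the shift was 1.54, and both guides turned to a higher level in R, at 0.33 and 0.47. The split of all called names moved in the same way, from 100 higher and 72 lower on the NE scale to 195 and 30 with clean reads, 169 and 33 with let-7 reads, and 316 and 13 with known reads. Since a scaling moves every name alike, the place of the guides among the other names was the same under each. Relative to the median of the tested names, oar-miR-26a stood at -1.24 and oar-miR-26b_R+1 at -1.09, and 13.5% and 15.1% of the tested names lay below them. Among the 59 known names with at least 1000 reads in both libraries, whose median log2 ratio was -0.59, they were 11 and 14 from the lowest.

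**Figure D2:**
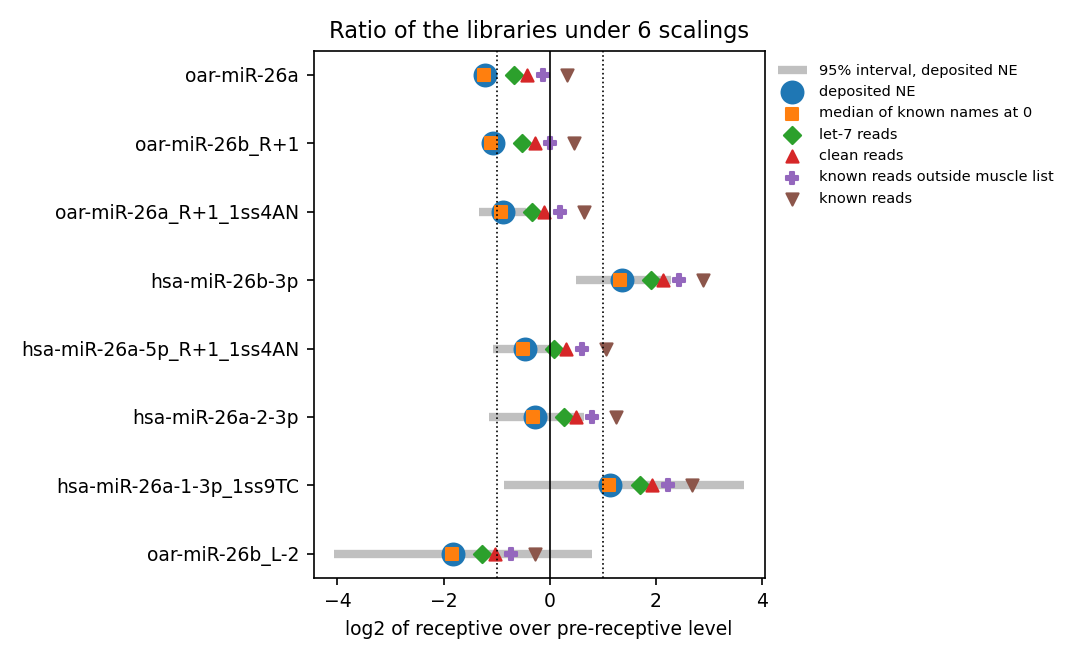
Log2 ratio of R to P of the 8 miR-26 names under 6 scalings of the libraries (symbols), with the 95% Clopper-Pearson interval on the NE scale as a gray bar and dotted lines at the 2-fold limits. The guide oar-miR-26a ranges from -1.24 to 0.33, and hsa-miR-26b-3p stays above 1 under all 6.

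**Figure D3:**
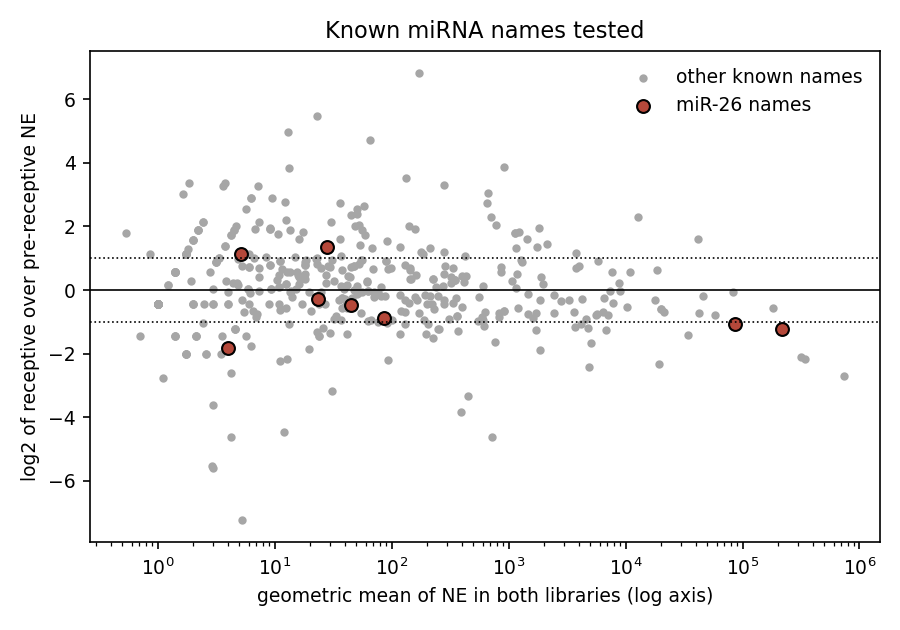
Log2 ratio of R to P (NE) against the geometric mean NE of both libraries (log axis) for the 438 known names tested, 1 point per name, with dotted lines at the 2-fold limits. The 8 miR-26 names are in red, with both guides at the abundant end just under the lower line; other scalings move all points up or down together.

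Levels of miRNAs known from the cell types of the uterine wall differed strongly between the libraries and are given beside these ratios. The muscle list (miR-1, miR-133, miR-143, miR-145 and miR-206) had 8 names, all 8 above 0 in both libraries, and its summed level was 292575 NE for R and 1883188 NE for P. It held 18.1% of the known reads of R and 40.2% of those of P, and its most abundant name, aja-miR-143_1ss22GT, stood at 289634 NE and 1866274 NE. All 8 muscle names were called lower in R, and no name of miR-206 or miR-133b entered the list. The epithelial list (miR-200, miR-141, miR-203, miR-205, miR-375 and the miR-183 group) had 16 names, of which 16 were above 0 in R and 13 in P. Its summed level was 38573 NE in R and 6977 NE in P, its most abundant name was hsa-miR-141-3p_R-1 at 28337 NE and 5791 NE, and 12 of 13 tested names were called higher in R, with no name of miR-200b in the list. With the reads outside the muscle list as the total, a choice made after the data were seen, oar-miR-26a stood at -0.13 and oar-miR-26b_R+1 at 0.017. That total counts a read again under each name that lists it. With each distinct sequence counted once, all known reads were 1677510 in R and 3443467 in P. A scaling by distinct sequences was not run, so where the guides would stand under it is not shown. The part of muscle and epithelium in the ratios of miR-26 was not tested further.

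Other lists differed less on the NE scale. The fibroblast list (miR-199 and miR-214) summed to 97321 NE in R and 97156 NE in P over 7 names, with 0 called and none of them an unlettered miR-199, and its most abundant name oar-miR-199a-3p stood at 82015 NE and 84822 NE. The blood cell list (miR-142, miR-144, miR-150, miR-223, miR-451 and miR-486) summed to 12221 NE and 12134 NE over 9 names, with 2 of 8 tested names called higher in R and no name of miR-150 or miR-451a in the list. Its most abundant name over both libraries was cgr-miR-486-5p at 5052 NE in R and 8073 NE in P, and in R alone it was cgr-miR-142-5p_L-2R+1 at 5689 NE, with 2524 NE in P. The endothelial miR-126 summed to 32841 NE in R and 21287 NE in P over 4 names, led by hsa-miR-126-5p at 23369 NE and 14955 NE, with 0 called. On the NE scale no list other than that of muscle was as much lower in R as the guides of miR-26. A scaling moves lists and guides alike, which keeps this order even where the guides turn to a higher level in R.

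The ratio of miR-26a to miR-26b does not depend on the scaling, because both guides are read in the same library. There were 2.41 reads of oar-miR-26a for each read of oar-miR-26b_R+1 in R (95% Clopper-Pearson interval 2.39 to 2.43) and 2.67 in P (2.65 to 2.68). As a share of the pair, miR-26a held 70.7% in R and 72.7% in P. The log2 change of the ratio from P to R was -0.14 (95% Woolf interval -0.16 to -0.13), a difference of 1.11-fold, and Fisher's exact test, two-sided, gave p = 5.16e-67 for these 2 libraries. The difference was small but larger than its counting error, and it was far smaller than the difference of either guide on the NE scale. How much the ratio varies between pools of goats was not measured.

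The 3p to 5p ratio is likewise free of the scaling, and it was higher in R for both miRNAs. For miR-26b there was 1 read of hsa-miR-26b-3p per 1325 reads of oar-miR-26b_R+1 in R and 1 per 7109 in P, from 52 and 15 reads of the passenger. The log2 change was 2.42 (95% exact conditional interval 1.57 to 3.36), a 5.37-fold higher ratio in R. For miR-26a the 2 passenger names together had 34 reads in R and 25.5 in P, or 1 per 4886 and 1 per 11148 reads of oar-miR-26a, with each name counted once; with repeated entries summed, as described below, these passengers are more abundant. The log2 change was 1.19 (0.43 to 2.02), a 2.28-fold higher ratio. Fisher's exact test, two-sided, with all names of an arm summed, gave p = 2.24e-10 for miR-26b and p = 0.00165 for miR-26a. Adjusted by Benjamini-Hochberg over all 89 miRNAs with both arms read, these exact p-values became 1.54e-09 and 0.00525. The tests compare the 2 libraries, not the phases.

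A higher 3p to 5p ratio in R was also found in other miRNAs. Of the 89 miRNAs with both arms, at least 10 reads per arm and reads in both libraries, 21.3% had a 3p to 5p ratio more than 2-fold higher in R and 12.4% one more than 2-fold lower, with a median log2 change of 0.21. miR-26b ranked 4 from the highest and miR-26a ranked 13. The miRNAs above miR-26b, named after their values were seen, were miR-154b, miR-340 and miR-10a, with log2 changes of 3.71, 3.36 and 2.88. Of these, miR-154b had 14 reads of its 3p arm in R and 1 in P. The 5p sequence listed for miR-10a is also that listed for miR-10b, so its 5p reads cannot be assigned to miR-10a alone. Taken as the less abundant over the more abundant arm, 24 of the 89 ratios were more than 2-fold higher in R and 6 more than 2-fold lower, with a median of 0.50. On the NE scale 2 of the 89, miR-26b and miR-340, had a 5p arm more than 2-fold lower together with a 3p arm more than 2-fold higher. The libraries also differed in make-up. By the study's read summary, a larger share of the raw reads of R than of P was removed by the adapter and length filter. The share of rRNA was larger in R as well. The part of these differences in the arm ratios was not tested.

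**Figure D4:**
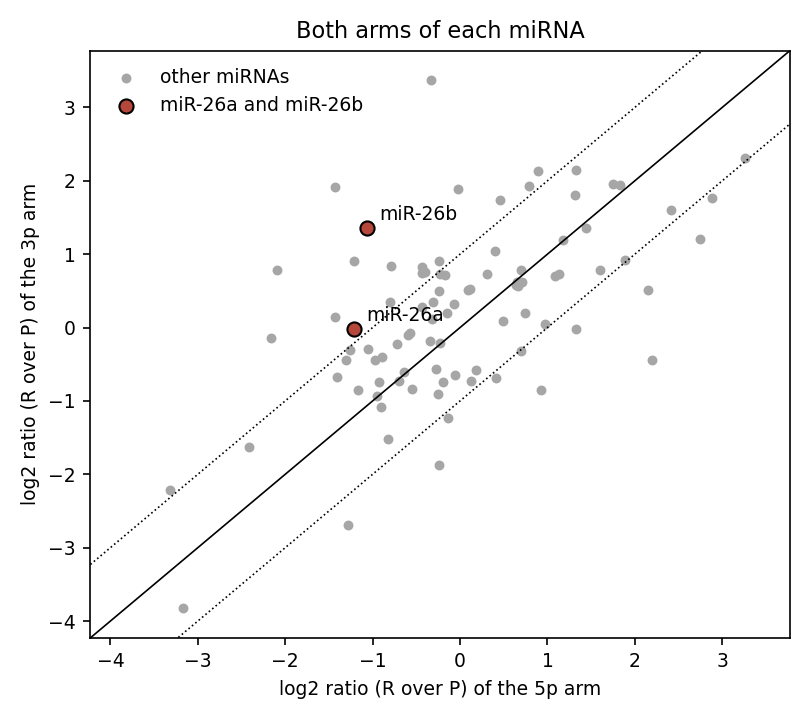
Log2 ratio of R to P (NE) of the 3p arm against that of the 5p arm for 89 miRNAs with both arms read, 1 point per miRNA with the names of an arm summed; the solid line marks equal ratios and the dotted lines a 2-fold difference between arms. miR-26b lies at -1.07 and 1.36 and miR-26a at -1.21 and -0.02, both above the upper dotted line; another scaling moves all points along the solid line.

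The proportion of the passenger strands to each other also differed between the libraries. Reads of hsa-miR-26b-3p stood to reads of both miR-26a passengers together as 1.53 to 1 in R (95% Clopper-Pearson interval 0.974 to 2.43) and as 0.588 to 1 in P (0.294 to 1.18), and both intervals include 1. The log2 change of this ratio was 1.38 (exact conditional interval 0.14 to 2.58). With the entries of hsa-miR-26a-2-3p summed, which alters the order of the strands in R, the ratio was 0.881 in R (0.595 to 1.30) and 0.312 in P (0.163 to 0.568), a log2 change of 1.496 (0.44 to 2.60). Set against its own guide, hsa-miR-26a-2-3p had a log2 change of 0.93 (0.07 to 1.86) and hsa-miR-26a-1-3p_1ss9TC one of 2.36 (0.36 to 4.88), the latter from 9 and 3 reads. The ratio of these 2 strands to each other changed by 1.43 with an interval of -0.85 to 4.07, so that a difference between them was not detectable at this depth. hsa-miR-26a-2-3p was listed in 2 entries with equal values, 25 and 22.5 reads in each. Summed over entries it had 50 and 45 reads, and both miR-26a passengers together then had 1 read per 2816 of the guide in R and 1 per 5922 in P, with a log2 change of 1.07 (0.50 to 1.65).

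Some names were variants of the guides. oar-miR-26a_R+1_1ss4AN and hsa-miR-26a-5p_R+1_1ss4AN had 1 listed sequence between them, with a base that was not called (A4N) inside the seed.
oar-miR-26a_R+1_1ss4AN: tTCNAGTAatccaggataggctt
The first stood at 63.2 NE in R and 116.9 NE in P, a log2 ratio of -0.89 (-1.34 to -0.44). The second stood at 38.3 NE and 52.9 NE, a log2 ratio of -0.47 (-1.06 to 0.19). Although the sequence is the same, the values differ, so how the reads were divided between these names cannot be told from the files. Together they held 118 reads in R and 146 in P, or 0.0710% (95% Clopper-Pearson interval 0.0588 to 0.0850) and 0.0513% (0.0433 to 0.0604) of the miR-26a guide reads. In all, 10 known names had an uncalled base, at position 4 in 9 of them, and miR-26a held 76.1% of their reads in R and 89.3% in P.

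The shortened form oar-miR-26b_L-2 lacked the first 2 bases of the guide and was 19 bases long, so that its bases 2 to 8 read differently.
oar-miR-26b_L-2: cAAGTAATtcaggataggt
It stood at 2.15 NE in R and 7.56 NE in P, from 2.5 and 6.5 reads. The log2 ratio was -1.81 (-4.06 to 0.79), and a difference was not detectable at this depth.

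The names whose ratio lay nearest to the guides were sought among the other known names with at least 1000 reads in both libraries, by the difference in log2 ratio over the 2 libraries. Nearest to oar-miR-26a were mdo-miR-181b-5p at -1.19, ptr-miR-92_R+2 at -1.25, hsa-miR-192-5p at -1.17, hsa-miR-181c-5p_R+1 at -1.26 and cfa-miR-196b at -1.05. Nearest to oar-miR-26b_R+1 were cfa-miR-196b, hsa-miR-192-5p, mdo-miR-181b-5p, mmu-miR-148a-3p_R+1 at -0.91 and bta-miR-3431 at -0.89. The most abundant of these, hsa-miR-181c-5p_R+1, had 4421 NE in R and 10612 NE in P, far below either guide. Likeness over 2 libraries is a single number per name and says nothing of shared control.

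The let-7 and miR-30 families were set beside miR-26. Summed over its names it stood at 202254 NE in R and 454815 NE in P. let-7, a family that marks differentiated tissue, stood at 289070 NE and 422653 NE over 16 names, and miR-30 at 13302 NE and 9996 NE over 11 names. The summed NE of miR-26 over that of let-7 was 0.700 in R and 1.08 in P, a log2 change of -0.62 (95% Woolf interval -0.63 to -0.61). With each name counted once, let-7 led in R and miR-26 narrowly in P. This ratio was not run with repeated entries summed, so the narrow lead in P may rest on that choice. Against miR-30 the ratio was 15.2 in R and 45.5 in P, a log2 change of -1.58 (-1.62 to -1.54). These ratios do not depend on the scaling. The most abundant let-7 name, oar-let-7a, had a log2 ratio of -0.56 on the NE scale, and the most abundant miR-30 name, oar-miR-30c_R+3, one of 0.75. On that scale 0 of 15 tested let-7 names and 0 of 11 tested miR-30 names were called.

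In the goat annotation ARS1.2, which is another build than the authors used, 2 genes of the family are named. MIR26A lies within the span of CTDSPL and MIR26B within that of CTDSP1. Matches of the known miRNAs to other species were listed by the authors for 23 species, and a miR-26a precursor was among them in 11, a miR-26b precursor in 8 and both in 7. In another 2 species the precursors were named miR-26 without a letter.

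The authors predicted targets only for the miRNAs they had called differentially expressed, with a median of 578.5 identifiers per miRNA name. The family had 4 names among these. Its other names, hsa-miR-26a-2-3p included, were not in that set, so the lack of a list says nothing of their targets. oar-miR-26a and oar-miR-26b_R+1 had 531 each and shared 492, which is 92.7% of either list. hsa-miR-26b-3p had 1084, rank 9 from the longest list, and hsa-miR-26a-1-3p_1ss9TC had 442. These 2 passengers shared 115 identifiers, which is 10.6% of the former list and 26.02% of the latter. The guides together had 570 identifiers and these 2 passengers 1411, with 200 in common, 35.1% of the former and 14.2% of the latter. The lists of the guides were thus nearly the same. Over all names with targets, 7608 identifiers were listed. Whether these 2 passengers shared more or fewer identifiers with each other or with the guides than other names do was not tested. The identifiers are not paired with gene names in the files, and whether any target changed was not analysed here.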

How the data were processed

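Small RNA of goat endometrium was read in 1 library per phase. The authors removed adapters, junk reads and other RNA classes with ACGT101-miR and matched the reads to miRBase 20.0 by BLAST search. For each name they deposited a normalized signal (NE). The deposited fold changes and p-values were the authors' own comparison and were not used. The NE values of 340 names shared by 2 deposited tables were equal within rounding under the same library labels. For 70 candidates shared by the deposited tables of predictions and of differential expression, the values were equal in 70 with the labels R and P exchanged and in 0 with them as written. The labels of the other 2 tables were followed, and from the table of predictions only sequences were used. Each NE was converted to reads through the value of a single read, the commonest value of its column. Of the names above 0, 79.1% in R and 83.1% in P came out whole (tolerance 0.01), and the others were fractions. Names listed more than once (54) were counted once. Intervals and Fisher's exact tests used reads rounded to the nearest whole number. Unmarked names were given the arm of a marked name sharing 12 bases, otherwise the arm opposite to the only marked one. Named besides the family were the 5 abundant names nearest to each guide and the most abundant name of each list over both libraries; cgr-miR-142-5p_L-2R+1, miR-154b, miR-340 and miR-10a were added with their values already in view. The members and lists were chosen with earlier results of these data known. Alternatives were other scalings (among them the totals of clean reads given by the study), a pseudocount, other minimums, names summed by arm, entries summed or counted, Fisher's exact test against the clean reads, and an exact binomial test on the NE scale. The code for the calls and intervals was run on simulated reads with counting error only. Such a run cannot show how the calls hold between goats, pools or amplified libraries. The tools were scipy 1.17.1, matplotlib 3.10.9, pandas 2.3.3 and numpy 2.4.6 under Python 3.11.15.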

Additional observations from a re-analysis of the deposited data

How the results depend on the processing

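The libraries were not replicated, and no alternative can show how goats differ. No paired analysis was possible because each phase had 1 library. The changes of the ratio of miR-26a to miR-26b and of both 3p to 5p ratios were within their intervals under all alternatives run. The scalings cancel in these ratios, and the other alternatives moved the miR-26b change from 2.42 to between 2.38 and 2.45 and the miR-26a change from 1.19 to between 1.07 and 1.20. The shares of miRNAs with a changed arm ratio were within 1.5-fold under the alternatives run for them. A limit of 3 reads is 2.58 NE for R and 3.49 NE for P, so ratios of the passengers rest on few reads.

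The level ratios depended on the scaling. For oar-miR-26a the log2 ratio was -0.43 with clean reads as the total, -0.66 with let-7 reads, -1.24 with the median of known names at 0, -0.13 with the known reads outside the muscle list (chosen after seeing the data) and 0.33 with all known reads. For oar-miR-26b_R+1 it was -0.28, -0.52, -1.09, 0.017 and 0.47 in the same order. The totals of known reads, with or without the muscle list, count a read again under each name that lists it. A total by distinct sequences was not run. For hsa-miR-26a-2-3p it turned from -0.28 to 0.50 with clean reads, 0.26 with let-7 reads, 0.80 outside the muscle list and 1.25 with known reads, and for hsa-miR-26a-5p_R+1_1ss4AN from -0.47 to 0.32, 0.080, 0.62 and 1.07. oar-miR-26a_R+1_1ss4AN turned to 0.20 outside the muscle list and 0.65 with known reads.

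The number of miR-26 names more than 2-fold lower in R was 1 with clean reads, 1 with let-7 reads, 0 outside the muscle list and 0 with known reads, in place of 3. The number more than 2-fold higher was 4 with known reads, and 1 with a pseudocount of 1 NE, with at least 10 reads in both libraries, with an exact binomial test on the NE scale (added after seeing the data), or with Fisher's exact test against the clean reads, in place of 2. Of all known names, 195 were higher and 30 lower with clean reads, 169 and 33 with let-7 reads, 237 and 20 outside the muscle list, 316 and 13 with known reads, and 45 and 40 with at least 10 reads. With Fisher's exact test against the clean reads, added to the 2-fold limit on the NE scale, 34 were lower, and with the binomial test 48. The shifts of the scalings are constants added to every name, and the lower counts with 10 reads come with fewer names tested. The cause of the other differences was not tested.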
